A study of Homo sapiens with 18 samples.

Results

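The 8 genes described here encode enzymes that build and methylate the cap of messenger RNA, with their partner and an eraser: PCIF1, CMTR1, CMTR2, RNMT, RAMAC, RNGTT, METTL4 and FTO. They were chosen by name from what is known of cap modification, with earlier results of these data already known. All 8 were among the 15258 genes of the deposited table and among the 14512 genes tested. The study worked with MEL624, an established human melanoma cell line, and edited PCIF1 in it. KO1 and KO2 are PCIF1 knockout lines, each a single clone, and the control is wild type MEL624 with a random sgRNA. Each line had 3 replicates, A to C, which the series design calls biological, so 9 libraries of input mRNA were used, and the 9 m6A libraries of the series were not analysed here. All cells were grown in the same medium, and the labels name no other agent. Which edit each clone carries was not stated in the labels.

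A cap forms on a transcript of RNA polymerase II as soon as its 5′ end leaves the enzyme. RNGTT removes a phosphate and adds a guanosine, and RNMT, held active by its small partner RAMAC, methylates that guanosine. CMTR1 and CMTR2 then methylate the ribose of the first and of the second transcribed nucleotide. PCIF1 binds the phosphorylated tail of the polymerase and adds a methyl group to the first nucleotide where it is an adenosine, which gives m6Am. FTO can remove that methyl group, and also removes m6A, the methyl mark inside transcripts. METTL4 is a relative of the m6A methyltransferases that makes m6Am inside the U2 small nuclear RNA.

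PCIF1 acts only on transcripts that begin with adenosine, so the bases around the annotated starts of these genes are shown here. Each window runs 5′ to 3′ on the gene's strand, from 20 bases before the start, and the capital marks the annotated start base. The sequences are from RefSeq on GRCh38.p14, which matched 7 of the 8 members, with 2 starts listed for CMTR2. RNMT had no match. PCIF1 lies at chr20:45934663-45934692 on the plus strand and CMTR1 at chr6:37433201-37433230 on the plus strand. CMTR2 lies on the minus strand at chr16:71289713-71289742 for the upstream start and chr16:71289393-71289422 for the downstream start. RAMAC lies at chr15:82986190-82986219 on the plus strand and RNGTT at chr6:88963609-88963638 on the minus strand. METTL4 lies at chr18:2571496-2571525 on the minus strand and FTO at chr16:53704136-53704165 on the plus strand.
PCIF1: ggtaccagcgcatgcgcagcGcggagtccc
CMTR1: gtcatcaggctgcgctgcccGcagtactgg
CMTR2 upstream start: tgaaagcccttggggccagcAgccagtgag
CMTR2 downstream start: gcgcgtgcgcagtgggacttGagtgcctcc
RAMAC: gcccgccggaagcggaagtcAggtggttgt
RNGTT: tcgggggcggaagttgcggtGcattgtggg
METTL4: cacgacgcgcgcagtaacttCcatgcgacc
FTO: gcgagggatctacgcagcttGcggtggcga

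Of these 8 windows, that of RAMAC and the upstream one of CMTR2 have A at the start base, in both cases after a C. PCIF1, CMTR1, RNGTT, FTO and the downstream start of CMTR2 have G there, and METTL4 has C. Among all 35116 promoters of the same table, 44.4% have A at the start base and 29.6% have the pair CA there. An annotated start is not a measured one, and the start used in MEL624 cells was not measured here.

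Levels below are TPM, transcripts per 1000000, a unit that corrects for gene length and library size, and log2 fold changes are differences of mean log2 TPM. Reads on genes ranged from 7848089 to 11393206 per library. A gene was called where limma, a linear model fitted across all tested genes, gave a Benjamini-Hochberg adjusted p under 0.05. With 1 clone behind each knockout label, the p-values reflect how libraries of the same line vary, and not how separately edited clones vary. The share of genes called was high throughout. KO1 against control had 20.2% of tested genes called higher and 14.1% lower, and KO2 against control had 15.6% higher and 14.8% lower. KO2 against KO1 had 11.8% higher and 16.9% lower. In KO1 the excess of higher calls depended on scaling: 16.9% were higher and 17.1% lower after median centring, and 19.4% and 19.3% with limma-voom on recovered reads. Of the genes called between the clones, 41.1% were higher in KO2, and 55.5% were after median centring of the libraries. As to the label, 6 of 12 melanoma and melanocyte markers had values (MITF, PRAME, MCAM, SOX9, AXL and NGFR). They summed to between 1020 and 1071 TPM in KO1, between 1010 and 1092 TPM in KO2 and between 1019 and 1046 TPM in control, a sum that was mostly AXL (680, 662 and 709 TPM in KO1, KO2 and control). Within the list PRAME was higher in both clones (log2 fold change 0.85 in KO1 and 0.79 in KO2) and NGFR lower (-1.60 and -1.81). MITF was lower in KO1 (-0.50) and higher in KO2 (0.43), SOX9 was higher in KO1 (0.40) and lower in KO2 (-0.32), and MCAM was higher in KO2 (0.16). All of these were called by limma. MLANA, PMEL, TYR, DCT, SOX10 and S100B, which mark pigment cells, were not among the 15258 genes with values. Nor was any of the 3 endothelial or 4 leukocyte markers, so no level can be given for these. The 2 of 4 fibroblast markers with values, COL1A1 and LUM, summed to between 2.76 and 3.52 TPM in KO1 and between 1.26 and 1.87 TPM in KO2, against 0.745 to 1.02 TPM in control. The higher sum was LUM, which averaged 2.39 TPM in KO1 and 1.146 TPM in KO2, against 0.0665 TPM in control, where each library had 0 or 1 reads. COL1A1, which was under the filter and not tested, averaged 0.720 TPM in KO1 and 0.401 TPM in KO2, against 0.805 TPM in control. The 2 of 4 epithelial markers with values, KRT8 and KRT18, summed to between 948 and 988 TPM in KO1 and between 851 and 928 TPM in KO2, against 1061 to 1082 TPM in control. Their part in the results was not tested. In bulk RNA, fewer cells of a type and less RNA per cell cannot be told apart.

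The set ran from about 7 to about 138 TPM in control cells, with RNMT on top and FTO at the bottom of all 3 lines. KO1 ordered the members as RNMT, CMTR1, RAMAC, PCIF1, RNGTT, CMTR2, METTL4 and FTO, and there the libraries of PCIF1 and RNGTT overlapped. KO2 ordered them as RNMT, PCIF1, CMTR1, RAMAC, RNGTT, CMTR2, METTL4 and FTO, with overlap between CMTR2 and METTL4. The control had the order RNMT, PCIF1, CMTR1, RAMAC, RNGTT, METTL4, CMTR2 and FTO, with overlap between RNGTT and METTL4 and between METTL4 and CMTR2. PCIF1 was thus the second in KO2 and in control, and the fourth in KO1. FTO was counted over 21379 bases of merged exons, against 3219 for PCIF1, so its low TPM refers to a gene model that pools many isoforms.

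**Figure D1:**
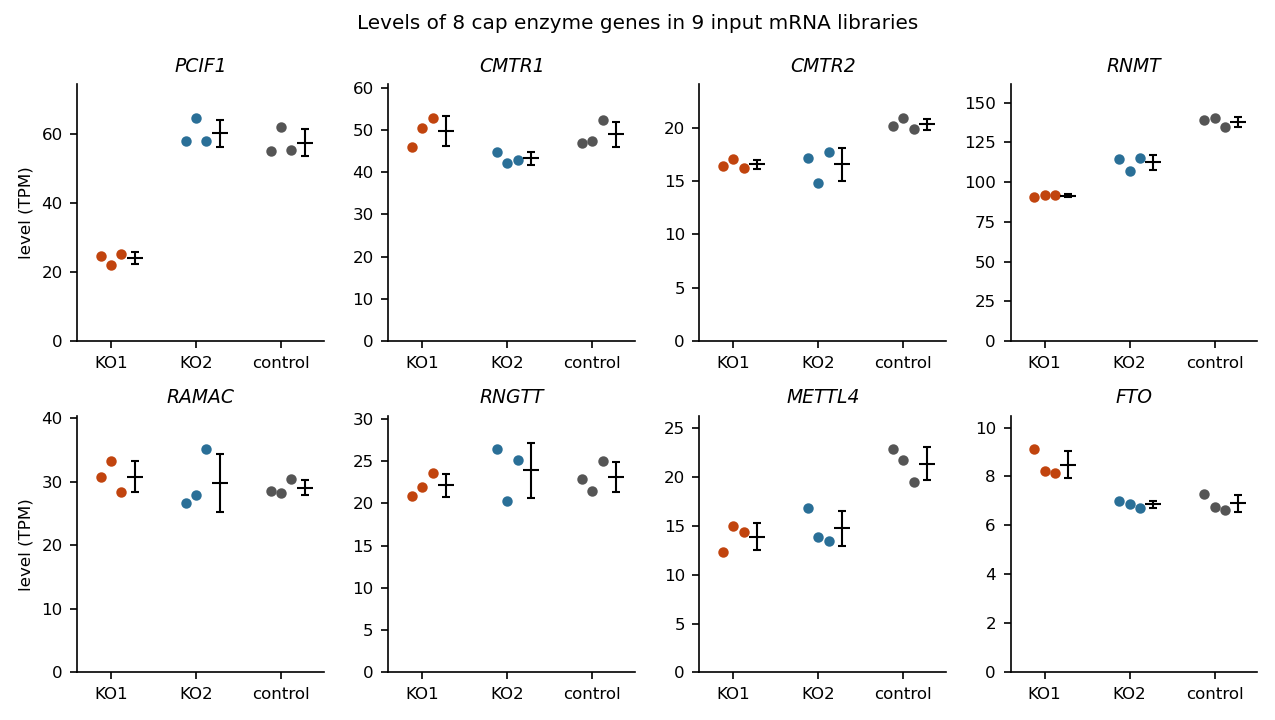
Level of each member in TPM on the vertical axis, with 1 point per library (replicates A to C from left to right) and a bar for the mean ± SD of the 3 libraries, for KO1, KO2 and control. PCIF1 is low in KO1 alone, at 24.0 TPM, while RNMT, METTL4 and CMTR2 lie below the control in both clones.

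Summed over the 8 members, the level was between 251 and 261 TPM in KO1, between 298 and 314 TPM in KO2 and between 343 and 349 TPM in control. The lines did not overlap in this sum. The KO1 mean was lower than the control mean by 88.1 TPM, to which RNMT gave 46.4 and PCIF1 33.6 TPM. The KO2 mean was lower by 37.4 TPM, to which RNMT gave 25.5 and METTL4 6.64 TPM. Most of the lower sum thus lay in RNMT and, for KO1, PCIF1.

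Tested gene by gene, 5 of the 8 members were called in KO1 against control, 1 higher and 4 lower, against a background of 20.2% and 14.1% (16.9% and 17.1% after median centring). PCIF1, CMTR2, RNMT and METTL4 fell, and FTO rose. In KO2 against control, 3 of 8 were called, CMTR2, RNMT and METTL4, and these fell, against a background of 14.8% called lower. None of the members was called higher in KO2 by limma, and none was higher at an unadjusted p under 0.05 or with limma-voom on recovered reads. The members' median log2 fold change was -0.18 in KO1 and -0.09 in KO2, beside 0.04 and 0.01 over all tested genes. Between the clones, PCIF1 and RNMT were higher in KO2 than in KO1, and CMTR1 and FTO were lower. The background there was 11.8% called higher and 16.9% lower (15.2% and 12.2% after median centring). The clones share the control libraries, so their values against control are not independent of each other.

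**Figure D2:**
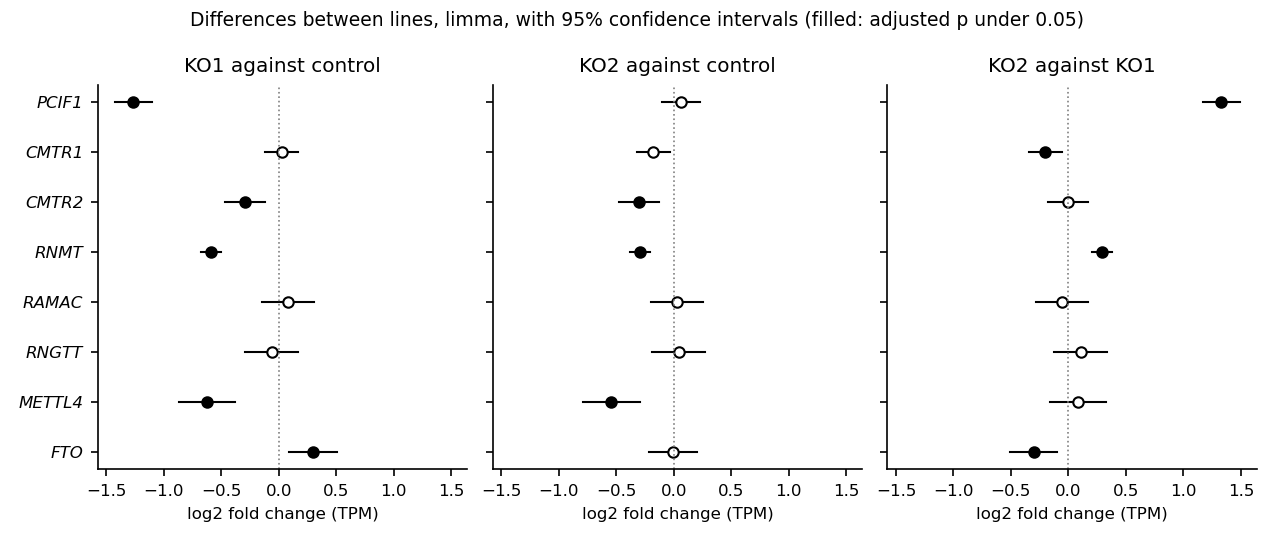
Log2 fold change of each member on the horizontal axis, with its 95% confidence interval, in KO1 against control, KO2 against control and KO2 against KO1. Filled points have a limma adjusted p under 0.05, and the widest departures from 0 are PCIF1 in KO1 against control (-1.26) and in KO2 against KO1 (1.33).

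PCIF1, the edited gene and the writer of m6Am at the cap, differed between the clones. Its level was 24.73, 21.97 and 25.26 TPM in KO1, 57.96, 64.73 and 58.13 TPM in KO2, and 55.19, 62.01 and 55.55 TPM in control. The KO1 libraries lay apart from all the others, and the KO2 libraries overlapped the control. In KO1 the mean was 24.0 ± 1.77 TPM, against 57.6 ± 3.84 TPM in control (SD, n = 3 each), or 41.6% of the control level. The log2 fold change was -1.26 ± 0.07 (SE; limma adjusted p = 1.65e-06). KO2 averaged 60.3 ± 3.86 TPM (SD, n = 3), a log2 fold change of 0.07 with a 95% interval of -0.10 to 0.23 (limma adjusted p = 0.542). KO2 exceeded KO1 by a log2 fold change of 1.33 (limma adjusted p = 2.54e-06). These levels rest on 199 to 210 reads per library in KO1, 459 to 532 in KO2 and 466 to 577 in control.

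A gene-level value does not read the edited site, so a PCIF1 level in KO2 that overlaps the control is no check of that clone's label. PCIF1 (ENSG00000100982) spans 45934683 to 45948023 on chromosome 20 of hg38, on the plus strand. It shares 122 exon bases with an unnamed long noncoding RNA on the other strand, and CMTR2 shares 163 with another, whose reads cannot be told apart unless strand was counted. The neighbours of PCIF1 lay near 0 in the median. PLTP, the tested gene to its left, had a log2 fold change of -0.32 in KO1, and ZNF335, to its right, had 0.25. Over the 24 nearest tested genes the median was -0.03 in KO1 and -0.11 in KO2. Over all 17 alternative settings, PCIF1 in KO1 stayed between -1.32 and -1.11 and was called each time.

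RNGTT, the capping enzyme that starts the cap, was not called in any comparison. It averaged 22.1 ± 1.36 TPM in KO1, 23.9 ± 3.24 TPM in KO2 and 23.1 ± 1.78 TPM in control (SD, n = 3 each), and all 3 lines overlapped. The 95% interval of its log2 fold change was -0.29 to 0.17 in KO1 and -0.19 to 0.27 in KO2. The values do not exclude changes inside these intervals.

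RNMT, the cap guanosine methyltransferase, was lower in both clones and lowest in KO1. It had 90.8, 92.1 and 91.7 TPM in KO1, 115, 107 and 115 TPM in KO2, and 139, 140 and 134 TPM in control. No library of one line reached the range of another. The KO1 mean was 91.6 ± 0.673 TPM and the KO2 mean 112 ± 4.55 TPM, against 138 ± 3.06 TPM in control (SD, n = 3 each). These are 66.4% and 81.5% of the control level. Log2 fold changes were -0.59 in KO1 (limma adjusted p = 4.25e-06) and -0.30 in KO2 (limma adjusted p = 0.000344). KO2 exceeded KO1 by a log2 fold change of 0.30 (limma adjusted p = 0.000507).

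RNMT (ENSG00000101654) lies at 13726660 to 13764556 on chromosome 18 of hg38, on the plus strand, among genes that were also lower in both clones. FAM210A, the tested gene to its left, was at -0.44 in KO1 and at -0.45 in KO2 on the log2 scale, and ZNF519, to its right, was at -0.47 and -0.61. Of the 24 nearest tested genes, 16 were called lower in KO1 and 17 in KO2, and 1 was called higher in each. Their median was -0.47 in KO1 and -0.46 in KO2. The median of the 12 on the left was -0.42 in KO1 and -0.38 in KO2, and that of the 12 on the right was -1.51 and -1.79. With the running median of 51 neighbouring genes subtracted from each library, RNMT stayed lower in KO1, at -0.23 (limma adjusted p = 0.00209). In KO2 it was then 0.09 (limma adjusted p = 0.130), with the sign turned, so the KO2 call rests on the scale without this subtraction. The clones still differed after it, by 0.32 (limma adjusted p = 0.000502). The window of 51 genes also takes in genes further right with values such as -0.16 and 0.19 in KO1. It thus mixes unlike stretches, and the level subtracted need not be that of the genes beside RNMT. FAM210A also shares 4 exon bases with RNMT on the other strand. The part that this stretch of the chromosome has in the lower level of RNMT was not tested further.

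RAMAC, which binds RNMT and raises its activity, was not called in any comparison. RAMAC averaged 30.8 ± 2.41 TPM in KO1, 29.8 ± 4.57 TPM in KO2 and 29.0 ± 1.18 TPM in control (SD, n = 3 each), and the lines overlapped. Its log2 fold change was 0.08 in KO1 (95% interval -0.15 to 0.31) and 0.03 in KO2 (-0.20 to 0.25), neither called. With 96 to 156 reads per library, RAMAC had the fewest reads of the 8. It shares 243 exon bases with C15orf40 on the other strand, and whether reads were counted by strand was not stated in the labels. C15orf40 was not called either, at 0.02 in KO1 and at 0.07 in KO2 on the log2 scale.

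The level of RNMT per RAMAC was lower in the clones. The ratio of their TPM within a library was 2.96, 2.77 and 3.23 in KO1, 4.32, 3.85 and 3.29 in KO2, and 4.87, 4.97 and 4.43 in control. The 3 lines did not overlap, and each exact two-sided permutation test gave p = 0.1, the smallest that 3 against 3 libraries allow. RNGTT per RNMT lay higher, between 0.229 and 0.257 in KO1 and between 0.189 and 0.230 in KO2, against 0.153 to 0.186 in control (exact permutation p = 0.1 for each clone). Neither RAMAC nor RNGTT was called, so both ratios repeat the lower level of RNMT and are no separate result. The limits given for RNMT hold for them too.

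**Figure D3:**
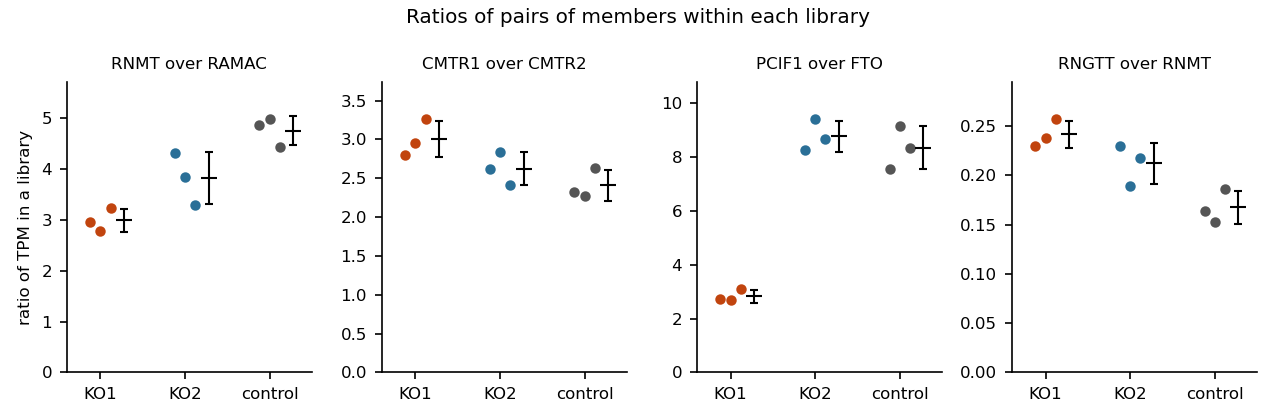
Ratio of the TPM of paired members within each library on the vertical axis, with 1 point per library and a bar for the mean ± SD of 3 libraries, for KO1, KO2 and control. RNMT over RAMAC lies lowest in KO1 and highest in control, and PCIF1 over FTO is low in KO1 alone.

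The ribose methyltransferases differed from each other. CMTR2, which acts on the second nucleotide, had 16.4, 17.1 and 16.2 TPM in KO1, 17.1, 14.8 and 17.8 TPM in KO2, and 20.2, 20.9 and 19.9 TPM in control. Every knockout library lay below every control library, while the clones overlapped each other. The means were 16.6 ± 0.459 TPM in KO1 and 16.6 ± 1.53 TPM in KO2, against 20.4 ± 0.537 TPM in control (SD, n = 3 each). The log2 fold change was -0.30 in KO1 (limma adjusted p = 0.0145) and -0.30 in KO2 (limma adjusted p = 0.0150). Both calls ended without control replicate B, at limma adjusted p = 0.0539 for KO1 and 0.0560 for KO2, with the values still at -0.28 in each clone. CMTR2 (ENSG00000180917) lies at 71281389 to 71289715 on chromosome 16 of hg38, where the median of its 24 tested neighbours was 0.07 in KO1 and -0.00425 in KO2. VAC14, the tested gene to its left, was at 0.30 in KO1 and 0.17 in KO2. CALB2, to its right, was at -2.78 and -1.75.

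CMTR1, which acts on the first nucleotide and is the more abundant of the pair, had 46.0, 50.6 and 52.9 TPM in KO1, 44.9, 42.1 and 42.8 TPM in KO2, and 47.1, 47.5 and 52.4 TPM in control. The KO2 libraries lay below those of both other lines, and KO1 overlapped the control. Against control, the log2 fold change was 0.02 in KO1 (limma adjusted p = 0.806) and -0.18 in KO2 (limma adjusted p = 0.0631), neither called. KO2 lay below KO1 (log2 fold change -0.20, limma adjusted p = 0.0412), a call that ended under 11 of 17 alternatives, among them 5 of the 6 that left out a library (all but KO1 replicate A). CMTR1 per CMTR2 ranged from 2.805 to 3.258 in KO1 and from 2.41 to 2.83 in KO2, against 2.27 to 2.63 in control (exact permutation p = 0.1 for KO1 and 0.3 for KO2).

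FTO, the demethylase that acts on m6Am and m6A, was higher in KO1 by a small margin. It had 9.104, 8.206 and 8.125 TPM in KO1, 7.004, 6.881 and 6.697 TPM in KO2, and 7.302, 6.765 and 6.642 TPM in control. The KO1 libraries lay above all the others, and KO2 overlapped the control. KO1 averaged 8.48 ± 0.543 TPM, against 6.90 ± 0.351 TPM in control (SD, n = 3 each), a log2 fold change of 0.30 (limma adjusted p = 0.0325). KO2 had a log2 fold change of -0.01, with a 95% interval of -0.21 to 0.20 (limma adjusted p = 0.960). The KO1 call was narrow and ended under 8 of 17 alternatives, with adjusted p up to 0.113. Leaving out control replicate B or C, or any 1 of the KO1 replicates, ended it. It also ended under quantile normalization, with only the 2 lines compared, and with the neighbours' running median subtracted. The log2 fold change stayed between 0.18 and 0.34 over all 17 alternatives. FTO was lower in KO2 than in KO1 (log2 fold change -0.30, limma adjusted p = 0.0340), and this call ended under 11 of 17 alternatives. Among these were the fits without any 1 of the 6 libraries, at adjusted p between 0.0605 and 0.115.

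The mRNA of writer and eraser stood in a different proportion in KO1. In lines with an edited PCIF1 gene, this ratio does not measure the enzymes themselves. PCIF1 per FTO was 2.72, 2.68 and 3.11 in KO1, 8.27, 9.41 and 8.68 in KO2, and 7.56, 9.17 and 8.36 in control. KO1 lay apart from both other lines, and KO2 overlapped the control (exact permutation p = 0.1 for KO1 and 0.5 for KO2 against control).

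METTL4, the internal m6Am methyltransferase, was lower in both clones. It had 12.3, 14.9 and 14.3 TPM in KO1, 16.8, 13.9 and 13.5 TPM in KO2, and 22.8, 21.8 and 19.5 TPM in control. Every knockout library lay below every control library, and the clones overlapped. The means were 13.9 ± 1.38 TPM in KO1 and 14.7 ± 1.83 TPM in KO2, against 21.4 ± 1.69 TPM in control (SD, n = 3 each), or 64.9% and 68.9% of the control level. Log2 fold changes were -0.63 in KO1 (limma adjusted p = 0.00188) and -0.54 in KO2 (limma adjusted p = 0.00429).

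METTL4 (ENSG00000101574) lies at 2537525 to 2571509 on chromosome 18 of hg38, on the minus strand, near the end of the chromosome arm that also holds RNMT. Its 22 nearest tested genes had a median log2 fold change of -0.44 in KO1 and -0.50 in KO2, and 17 were called lower in KO1 and 15 in KO2. NDC80, the tested gene to its right, had -0.33 in KO1 and -0.67 in KO2, and ENSG00000265417, to its left, had -0.83 and -0.56. With the running median of 51 neighbours subtracted, METTL4 was at -0.16 in KO1 (limma adjusted p = 0.303) and -0.01 in KO2 (limma adjusted p = 0.964), and neither call remained. Under the other 16 alternatives both calls held. The part of the surrounding stretch in the lower level of METTL4 was not tested further.

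**Figure D4:**
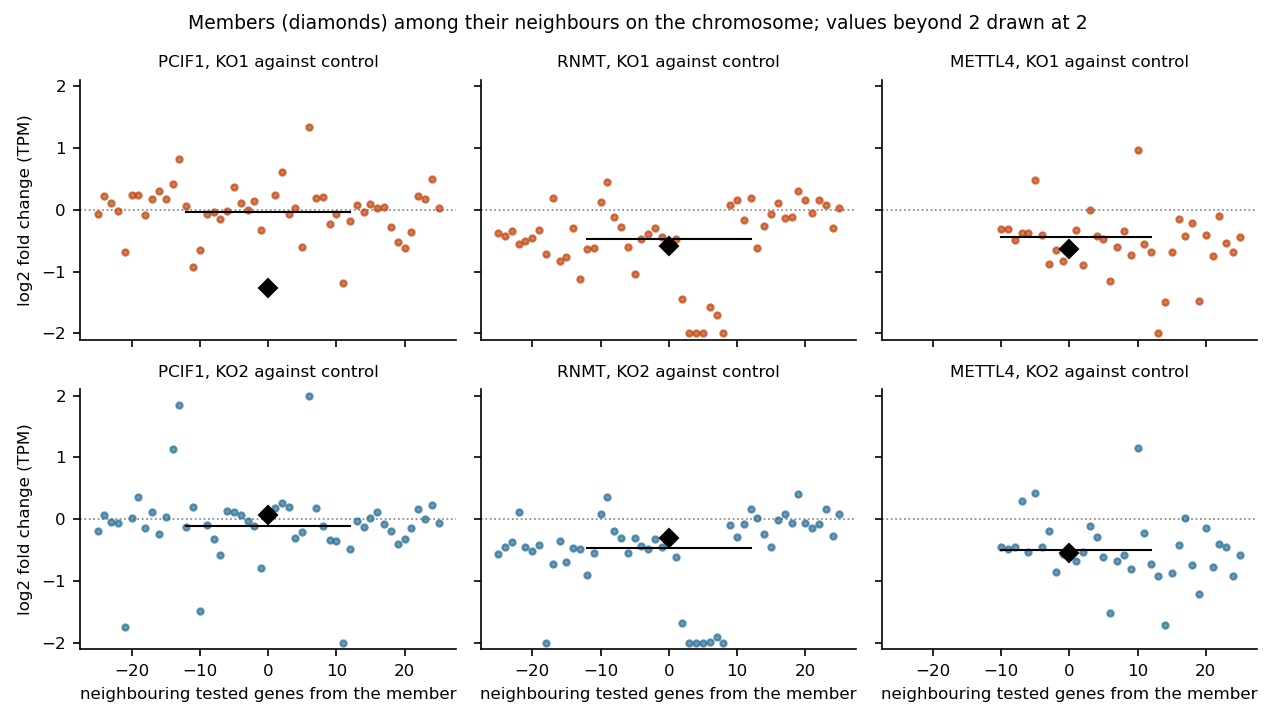
Log2 fold change of PCIF1, RNMT and METTL4 (diamonds) and of up to 25 tested genes on each side, by their order along the chromosome, for KO1 against control (upper row) and KO2 against control (lower row). The line is the median of up to 12 genes on each side: -0.03 around PCIF1, -0.47 around RNMT and -0.44 around METTL4 in KO1, and values beyond 2 are drawn at 2.

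The genes whose level over the 9 libraries was most like that of a called member were found by Pearson's r of log2 TPM, as a description, since the libraries fall into 3 lines and many genes separate them. ZNF556, PDE2A and FUOM were closest to PCIF1 (r between 0.990 and 0.992), and 80 genes passed an r of 0.95. CDK18, UCA1 and S100A4 were closest to RNMT (r = 0.988 for each), with 72 genes past 0.95. CMTR2 was closest to SEC23B, WDHD1 and AZIN2, with an r of 0.991 for SEC23B and 19 genes past 0.95. METTL4 was closest to CPS1, SALL1 and ANKRD27, with an r of 0.978 for CPS1. FTO was closest to CYP4V2, ZNF646 and ATF7-NPFF, with an r of 0.986 for CYP4V2. CMTR1 had no gene past 0.95, and GLCE came nearest at 0.948.

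Around these enzymes stand the other proteins that modify, bind, remove or sense the cap, and they were counted by list. The shares called over all tested genes, against which each count stands, are 20.2% higher and 14.1% lower in KO1 and 15.6% higher and 14.8% lower in KO2. Of 5 other cap-modifying enzymes, limma called none in KO1 and 1 higher in KO2, beside 2 higher at an unadjusted p under 0.05 and none with limma-voom in KO1. TGS1, which hypermethylates the cap of small nuclear RNAs, was the one, at 72.3 ± 4.27 TPM in KO2, against 60.5 ± 3.97 TPM in control (SD, n = 3 each; log2 fold change 0.26, limma adjusted p = 0.00877). The list medians were 0.12 in KO1 and 0.13 in KO2.

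Of 5 nuclear cap-binding proteins, 3 were called higher in KO1 and 1 in KO2, and limma called none lower in either clone, also at an unadjusted p under 0.05 and with limma-voom. SRRT, which links the cap-binding complex to RNA processing, had 232, 212 and 214 TPM in KO1, against 170, 174 and 181 TPM in control (log2 fold change 0.32, limma adjusted p = 0.000751). NCBP1, the large subunit of the cap-binding complex, was at 0.22 in KO1 (limma adjusted p = 0.00630), and PHAX, an export adaptor of small nuclear RNAs, at 0.28 (limma adjusted p = 0.0205). The one called in KO2 was NCBP2, the small subunit that holds the cap, at 0.14 (limma adjusted p = 0.0330), named after its value was seen, and limma-voom did not call it (0.0577). With the running median of neighbours subtracted, NCBP1 was at 0.14, still called, and PHAX at 0.17. PHAX lost its call under 4 of 17 alternatives, including those without control replicate C, KO1 replicate B or KO1 replicate C, and NCBP2 under 10, including those without control replicate A or B or any 1 KO2 replicate.

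Decapping enzymes and their cofactors were mostly uncalled, with 1 of 11 higher in KO1 and 1 in KO2 and medians of 0.02 and 0.01. DCP2, the decapping enzyme, was at 0.27 in KO1 (limma adjusted p = 0.0377), and DCP1A, its cofactor, at 0.18 in KO2 (limma adjusted p = 0.0412). Each lost its call under 10 of 17 alternatives. For DCP2 these included leaving out control replicate B or C or any 1 KO1 replicate, and for DCP1A any 1 of the 6 libraries compared. With the running median of neighbours subtracted, DCP1A was at -0.16 and DCP2 at 0.17. Limma called none lower in either clone, with 0 at an unadjusted p under 0.05, while limma-voom called 1 lower in KO1.

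All the methyltransferases here use S-adenosylmethionine, and of 10 genes of its supply 2 were called higher and 3 lower in KO1, and 3 higher and 2 lower in KO2 (list medians -0.08 and -0.02). MAT2A, which makes S-adenosylmethionine, was at 478 ± 2.24 TPM in KO1 and 479 ± 24.8 TPM in KO2, against 421 ± 6.16 TPM in control (SD, n = 3 each). Its log2 fold changes were 0.18 and 0.19 (limma adjusted p = 0.00447 and 0.00432), and the KO1 value was 0.11, still called, with its neighbours' running median subtracted. AHCYL1, a relative of the hydrolase of the spent cofactor, fell by 0.28 in KO1 and by 0.25 in KO2, and MTAP, which salvages methylthioadenosine, fell by 0.18 and by 0.22. AHCY, the hydrolase itself, was lower in KO1 at -0.16 (limma adjusted p = 0.0117) and higher in KO2 at 0.18 (limma adjusted p = 0.00717). The clones differed in AHCY by 0.34, KO2 higher (limma adjusted p = 0.000240), and its KO1 call ended without control replicate B (adjusted p = 0.0517).

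Of 13 other genes of RNA adenosine methylation, 3 were called higher and 3 lower in KO1, and 1 higher in KO2, where limma called none lower, beside 1 at an unadjusted p under 0.05 and 1 with limma-voom. The list medians were 0.08 in KO1 and 0.02 in KO2. RBM15, which helps place the m6A writer on RNA, was at 0.38 in KO1 (limma adjusted p = 0.00470). RBM15B, its relative, was at 0.41 in KO2 (limma adjusted p = 0.000919) and at 0.02, uncalled, with its neighbours' running median subtracted. ZCCHC4, which methylates an adenosine of ribosomal RNA, was at -0.29 in KO1 (limma adjusted p = 0.0224). This call was lost when control replicate A or C, or KO1 replicate A or C, was left out. METTL3, the catalytic subunit of the m6A writer and named after its value was seen, had 36.4, 36.5 and 38.0 TPM in KO1, against 44.9, 41.2 and 42.8 TPM in control (log2 fold change -0.22, limma adjusted p = 0.00713).

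PCIF1 and RNGTT both bind the polymerase tail, and of 16 genes of polymerase II and early elongation 4 were called higher and 2 lower in each clone (list medians 0.05 in KO1 and 0.03 in KO2), beside 20.2% and 14.1% of all tested genes in KO1 and 15.6% and 14.8% in KO2. POLR2A, the subunit that carries that tail, had 151, 140 and 159 TPM in KO1, 117, 122 and 102 TPM in KO2, and 86.8, 86.5 and 82.6 TPM in control. No line overlapped another. Its log2 fold changes were 0.81 in KO1 (limma adjusted p = 2.34e-05) and 0.41 in KO2 (limma adjusted p = 0.00150), and KO2 was lower than KO1 (log2 fold change -0.40, limma adjusted p = 0.00210). SUPT5H, an elongation factor that binds capping enzymes, was at 0.38 in KO1 and 0.20 in KO2, and CDK12, a kinase of the tail, at 0.37 and 0.27. POLR2A, SUPT5H and CDK12 were called in both clones under all 17 alternatives. MNAT1, of the kinase complex that also phosphorylates the tail, fell by 0.22 in KO1 (limma adjusted p = 0.0242) and by 0.21 in KO2 (0.0321), and lost its call under 3 and 7 alternatives. Those included leaving out control replicate B or C in each clone, KO1 replicate A in KO1, and KO2 replicate A or B in KO2.

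Proteins that sense caps lacking ribose methylation, or RNA without a proper cap, were counted last. Of 7 tested, 3 were called higher in KO1, where limma and limma-voom called none lower, nor was any lower at an unadjusted p under 0.05. In KO2, 3 were called higher and 2 lower, and the list medians were 0.27 in KO1 and 0.37 in KO2. RIGI and IFIT1 are named after their values were seen. RIGI was lower in KO2 at -0.53 (limma adjusted p = 0.0206) and uncalled in KO1 at 0.04. IFIT1 was at 0.41 in KO1 (limma adjusted p = 0.0767) and 0.37 in KO2 (0.112), neither called. IFIT3, which stabilises the cap-binding IFIT1, had 45.6, 46.0 and 47.8 TPM in KO1, 41.0, 38.5 and 45.0 TPM in KO2, and 28.36, 27.96 and 25.17 TPM in control. Both clones lay above the control, at log2 fold changes of 0.78 (limma adjusted p = 3.09e-05) and 0.61 (limma adjusted p = 0.000117). With its neighbours' running median subtracted, IFIT3 in KO2 was at 0.27 and still called (limma adjusted p = 0.00717). IFIT2, another member of the family, was at 0.40 in KO1 (limma adjusted p = 0.0330) and at 0.52 in KO2 (0.0118). Its KO1 call ended under 5 alternatives, among them those without control replicate B or C or without KO1 replicate A or B. Its KO2 call ended with the neighbours' running median subtracted, at 0.20 (limma adjusted p = 0.270). On the log2(TPM + 5) scale, which compresses low genes, IFIT2 was at 0.24 in KO1 and at 0.32 in KO2, both called. EIF2AK2, the kinase that responds to double-stranded RNA, was higher in KO1 at 0.27 (limma adjusted p = 0.00901) and lower in KO2 at -0.21 (limma adjusted p = 0.0309). The KO2 call of EIF2AK2 ended without control replicate A or without any 1 KO2 replicate, and the clones differed in it by -0.48 (limma adjusted p = 0.000493).

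**Figure D5:**
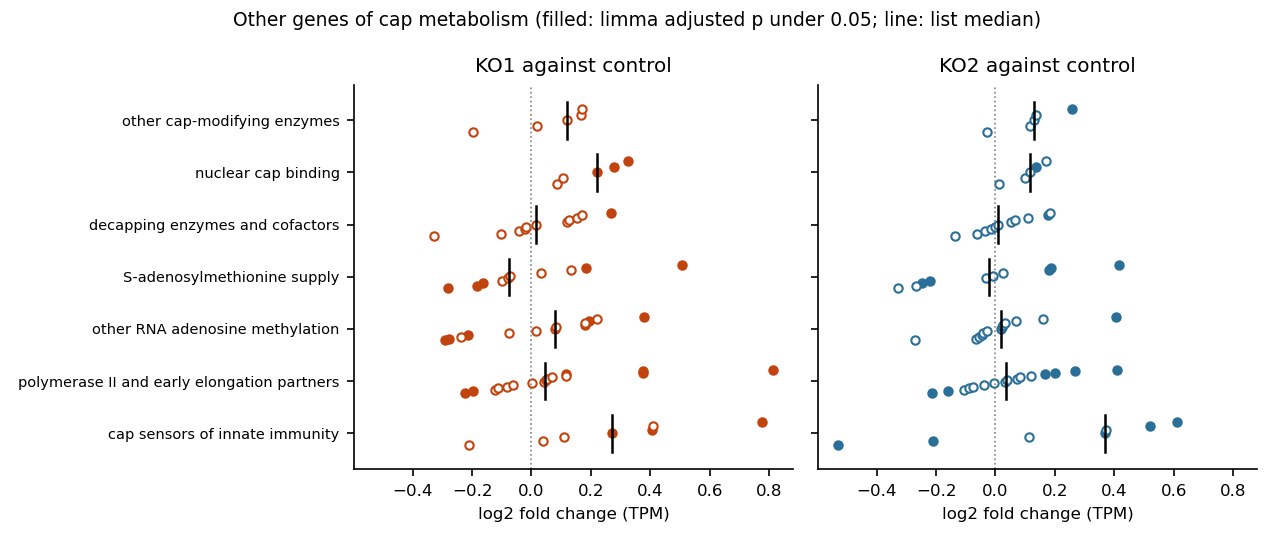
Log2 fold change on the horizontal axis of each tested gene of 7 lists around the cap (rows), for KO1 against control and KO2 against control. Filled points have a limma adjusted p under 0.05 and the vertical line is the list's median, which in KO1 is 0.22 for nuclear cap binding and 0.27 for cap sensors.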

How the data were processed

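Input mRNA of 9 libraries was analysed, 3 per line. The authors deposited log2 TPM values of 15258 genes in 1 table, and the values of a column, taken off the log scale, add up to 1000000. Per the submitters' processing notes, the build was hg38 and the tools were featureCounts, edgeR 3.12.1 in R 3.3.3, HISAT2 2.0.4, deepTools 3.0.2 and SAMtools 1.7. No label states the tools' roles, the annotation or the strand setting. Symbols and positions came from GENCODE 44, which held 15138 of the identifiers. Low values stepped in whole reads, recovered for 100% of genes (tolerance 1e-06 reads), 84602764 in all. These totals give the precision, and the printed intervals cover spread between libraries.

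Genes averaging 1 TPM or more, 14512 in number, were fitted with limma 3.58.1 in R 4.3.3 (trended variance, 1 mean per line, 6 residual degrees of freedom). An exact two-sided permutation test (Python 3.11.15 with numpy 2.4.6) was added for single values. The members and lists were chosen with earlier results of these data known. All members were named. From each list the genes called in both clones were named, else up to 3 called in 1 clone by size of change. Likeness took the 3 genes with the highest r, and neighbours the 12 nearest tested genes per side. Alternatives were log2(TPM + 1), log2(TPM + 5), quantile normalization, median centring, genes averaging 5 TPM or more, no filter, an untrended variance, only the 2 lines compared, a replicate block, a running median of 51 neighbours subtracted, limma-voom on the recovered reads, and each library left out in turn. No library was a copy of another (chi-square per degree of freedom of replicate pairs between 1.22 and 3.71).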

Additional observations from a re-analysis of the deposited data

Results flagged for a closer look

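For 4 of the 8 members the clones differed from each other in the test between KO2 and KO1 itself. Over all tested genes, 11.8% were called higher and 16.9% lower in that test. PCIF1 was higher in KO2 than in KO1 (log2 fold change 1.33, limma adjusted p = 2.54e-06), and 3 of 3 KO2 libraries lay above 3 of 3 KO1 libraries. RNMT was higher in KO2 by 0.30 (limma adjusted p = 0.000507), with the same separation. CMTR1 was lower in KO2, at -0.20 (limma adjusted p = 0.0412), and FTO was lower in KO2, at -0.30 (limma adjusted p = 0.0340). The differences in PCIF1 and RNMT were called under all 17 alternatives run for them, and those in CMTR1 and FTO were each called under 6 of 17. With 1 clone behind each label, clone and edit cannot be told apart.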

How the results depend on the processing

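Over the members and named genes, 969 values came from 20 alternative settings: 851 kept sign and side of the threshold, 94 lost the call, 1 gained it and 23 turned sign. The gain was CMTR1 in KO2, called by limma-voom (adjusted p = 0.0277). Members called in KO1 numbered 5, and 3 after subtracting the neighbours' median, and 3 to 5 when 1 library was left out. Without control replicate B they were 3. Members called in KO2 numbered 3, and 1 after that subtraction. Between the clones 4 were called, and 2 under median centring, quantile normalization, only the 2 lines compared, the replicate block or the subtraction, and 2 to 3 when a library was left out. Replicate letters did not pair the libraries (same-letter correlation of deviations between -0.07 and 0.04), and with the replicate block 5, 3 and 2 members were called in KO1, in KO2 and between the clones. Sign turned for RNMT in KO2 after the subtraction (0.0895) and for DCP1A in KO2 (-0.159). The other turns were in uncalled values. CMTR1 in KO1 was at -0.0126 under centring and -0.0108 under limma-voom, and -0.0203 to 0.0803 with a library left out. FTO in KO2 was at 0.00423 under centring, 0.0312 after the subtraction, and -0.0351 to 0.0332 with a library left out. RNGTT in KO2 was at -0.0787 after the subtraction and -0.0312 to 0.159 with a library left out, and RAMAC in KO2 at -0.0939 to 0.106. Between the clones CMTR2 was at 0.0460 under centring, 0.0412 under quantile normalization, 0.0688 after the subtraction, 0.0356 under limma-voom and -0.0546 to 0.0747 with a library left out. RAMAC was there at -0.175 to 0.0248 and METTL4 at -0.0143 to 0.146. In the other lists, calls ranged in KO1 from 0 to 2 for other cap-modifying enzymes (0 as reported), 0 to 2 for decapping (1), 4 to 8 for adenosine methylation (6), 3 to 6 for polymerase II (6), 4 to 5 for S-adenosylmethionine supply (5), and 2 to 3 for nuclear cap binding (3) and for cap sensors (3). In KO2 they ranged from 0 to 1 for nuclear cap binding (1), 0 to 2 for decapping (1) and adenosine methylation (1), 3 to 6 for polymerase II (6), 4 to 7 for S-adenosylmethionine supply (5) and 3 to 5 for cap sensors (5), while other cap-modifying enzymes stayed at 1. The causes were not tested. With 96 to 156 reads per library, RAMAC was the member that depth limited most.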

Other observations

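To the right of RNMT, the second to the eighth tested gene had log2 fold changes between -7.87 and -1.45 in KO1 and between -7.43 and -1.67 in KO2, far below RNMT itself (-0.59 in KO1 and -0.30 in KO2). The 4 tested genes after them had values between -0.16 and 0.19 in KO1 and between -0.28 and 0.17 in KO2. Values of genes near 0 reads depend on the small prior added before the logarithm and are no bound on a fold change.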
